A study of Mus musculus with 10 samples.

Results

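Solute carriers are the genes whose symbols begin with Slc and a number. All probe sets of the deposited array table with a single platform symbol of that form were taken, except those of Slc7a11, Slc12a2, Slc4a1, Slc29a3 and Slc25a16. This gave 182 of 12488 probe sets, for 148 of the 8252 genes that the table names singly, and 129 of the 182, for 114 genes, passed the filter on dim probe sets. The RNA came from the cochleae of female mice aged 10 weeks, and each array held a pool from 8 mice. Mice of 129X1/SvJ are inbred, and those of B6.CAST are congenic on the C57BL/6J background. Control mice of both strains sat in the noise chamber without sound, so both groups carry the stress of handling and confinement. Noise mice of both strains were given an octave-wide band at 10 kHz and 105 dB SPL that lasted 1 h, and their tissue was taken 6 h later. The 129X1/SvJ mice gave 3 control arrays and 3 noise arrays, and the B6.CAST mice gave 2 control arrays and 2 noise arrays. A pool averages its animals, so the spread between arrays does not show how single mice differ.

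Solute carriers are membrane proteins that move small molecules and ions across cell and organelle membranes, by facilitated diffusion, cotransport or exchange. They are grouped here by substrate into 17 classes, among them amino acids, sugars, metals, nucleotide sugars, neurotransmitters and the carriers of the inner mitochondrial membrane. In the cochlea such proteins take up glucose across the blood-labyrinth barrier, clear glutamate at the hair cell synapse, and move potassium and chloride on their return path to the stria vascularis. A few genes with an Slc symbol are no transporters: Slc9a3r1 and Slc9a3r2 encode scaffold proteins that bind sodium-proton exchangers, and Slc4a1ap encodes a nuclear protein. These were kept in a class named other, as the rule took them by symbol.

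The regions around the transcription start of 2 genes that differed between the strains, Slc6a13 and Slc25a4, are shown as background, and no strain result was tested against them. They run from 250 bases before to 50 bases after a RefSeq start on GRCm38.p6, a genome of C57BL/6J, and capitals mark the GC box GGGCGG, searched on both strands. Slc6a13 (chr6:121300038-121300337, plus strand, the most upstream of 3 starts) holds 2 GC boxes and Slc25a4 (chr8:46211013-46211312, minus strand, its only start) holds 1.
Slc6a13: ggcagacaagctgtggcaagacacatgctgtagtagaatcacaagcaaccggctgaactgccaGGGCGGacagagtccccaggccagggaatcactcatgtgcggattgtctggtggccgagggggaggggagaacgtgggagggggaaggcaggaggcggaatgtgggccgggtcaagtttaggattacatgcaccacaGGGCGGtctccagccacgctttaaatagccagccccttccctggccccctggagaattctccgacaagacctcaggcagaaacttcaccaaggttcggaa
Slc25a4: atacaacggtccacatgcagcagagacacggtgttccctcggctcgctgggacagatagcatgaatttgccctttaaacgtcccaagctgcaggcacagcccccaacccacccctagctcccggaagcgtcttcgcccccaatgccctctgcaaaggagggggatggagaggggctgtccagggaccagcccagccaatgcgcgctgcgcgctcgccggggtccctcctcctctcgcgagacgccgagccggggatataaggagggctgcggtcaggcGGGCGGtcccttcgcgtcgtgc
A GC box stood in 108 of the 174 promoters (62.1%) found for 123 of the 148 genes, and in 35.7% of all 32851 promoters of the table. The letters TATAAA, searched on both strands, stood in 13 of the 174 (7.47%) and in 13.6% of all, and in neither region printed here. The promoters of the table were not limited to genes of the array, so the shares come from unlike sets of genes and were not tested. These are matches of letters only, and the 129X1/SvJ sequence was not read here.

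Values are deposited signal intensities, and changes are differences of log2(signal + 16) after quantile normalization, each with its standard error from a limma fit to all 10 arrays and 8695 probe sets. Adjusted p-values are from that fit by the Benjamini-Hochberg method over all 8695 probe sets, with a threshold of 0.05. The filter corresponds to a signal of 42.9, called the floor below. The solute carrier probe sets together held 1.07 to 1.24% of the summed signal of an array. The correlation of an array with the others averaged 0.943 to 0.955, except for 0.910 on the first noise array of 129X1/SvJ. The Gapdh signal at the 3' end over that at the 5' end, a sign of RNA or cRNA integrity, was 29.2 for 129X1/SvJ control 2 and 6.94 for B6.CAST noise 1, against 0.790 to 1.40 on the other arrays. Cochlear markers were bright in all groups (Coch, Calb2, Ocm, Dct, Kcne1), while Gfi1, a hair cell gene, had group means of 41.0 to 66.6. Of 95 markers of cell types that the tissue could hold, those of the cochlea included, none was at 0 on every array and 12 were under the filter. A signal above 0 does not show that a cell type was present, since dim probe sets such as that of Slc10a2 also read above 0. The neutrophil markers summed to 2475 to 2752 on the noise arrays of B6.CAST and to 3713 to 38798 on the other arrays. The stria vascularis and melanocyte markers summed to 15828 to 18747 in B6.CAST and to 10580 to 11977 in 129X1/SvJ, a separation carried by Dct, since the other 5 summed to 2363 to 3475 and to 2565 to 3873. In these bulk samples, fewer cells of a type and less RNA per cell cannot be told apart.

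In all classes except the phosphate transporters, the anion transporters and the sodium, proton and calcium exchangers, more probe sets passed the filter than failed it. The mitochondrial carriers passed in 21 of 24 probe sets, the metal transporters in 21 of 23, and the nucleotide sugar transporters of the Golgi and the endoplasmic reticulum in 10 of 11. The amino acid transporters passed in 19 of 28, the lipid, bile acid and choline transporters in 9 of 17, the neurotransmitter and vesicular transporters in 8 of 14 and the sugar transporters in 7 of 13. Only 6 of 12 anion transporters, 2 of 5 sodium, proton and calcium exchangers and 1 of 5 phosphate transporters passed. The genes whose probe sets were all dim include Slc12a1 and Slc12a3, the salt cotransporters of the kidney tubule, Slc34a1 and Slc17a1, phosphate transporters of the kidney, Slc10a1 and Slc10a2, which take up bile acids in liver and gut, and Slc18a3, Slc32a1 and Slc6a3, which mark cholinergic, inhibitory and dopaminergic neurons. A dim signal gives only a bound, and no order is read from signals of different probe sets.

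**Figure D1:**
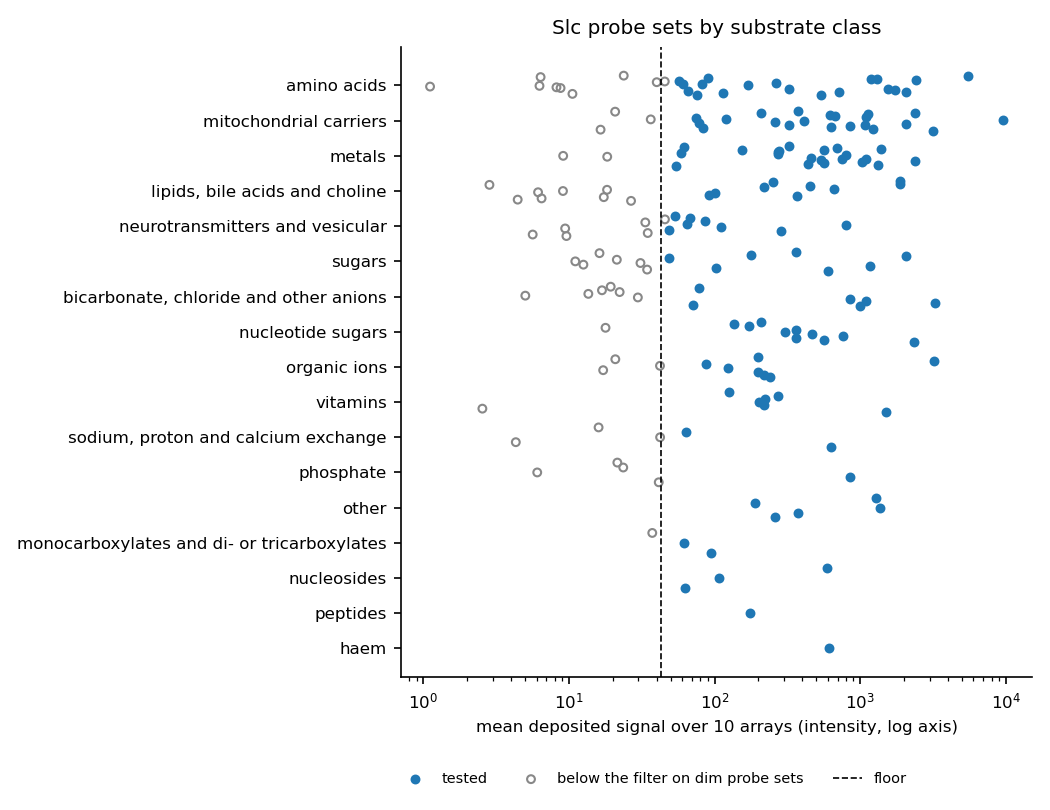
Mean deposited signal over the 10 arrays (log axis) of the 182 solute carrier probe sets, in rows by substrate class. Filled points are the 129 tested probe sets, open points the 53 under the filter, and the dashed line marks the floor of 42.9.

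The members of highest signal in several classes were called in no comparison. Slc3a2, the heavy chain that carries several amino acid transporters to the cell surface, had signals of 5409 ± 170 (SD, n = 3) in control and 6141 ± 64 (n = 3) in noise mice of 129X1/SvJ, and of 4939 ± 491 (n = 2) and 5281 ± 40.7 (n = 2) in those of B6.CAST. Slc2a1, the glucose transporter of barrier endothelium, had 2170 ± 170, 2152 ± 184, 1737 ± 604 and 2129 ± 56.0 in the same order. Slc12a7, a potassium-chloride cotransporter of supporting cells, had 3489 ± 186, 3361 ± 511, 2611 ± 324 and 3457 ± 690. Control mice of B6.CAST had the lowest mean for these 3 genes, from 2 arrays. For Slc2a1 the difference of B6.CAST minus 129X1/SvJ in control mice was -0.36, and ran from -0.69 to -0.016 with single arrays left out. Slc23a2, a vitamin C transporter, had 1452 ± 70.5, 1518 ± 87.7, 1488 ± 144 and 1584 ± 4.60, and Slc39a7, a zinc transporter of the endoplasmic reticulum, had 2526 ± 119, 2124 ± 278, 2252 ± 590 and 2673 ± 600. Slc6a9, a glycine transporter, had 760 ± 140, 887 ± 36.1, 697 ± 66.4 and 864 ± 137, with the noise mean above the control mean in each strain.

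The members of highest signal in some smaller classes were likewise measured in all groups. Slc29a1, an equilibrative nucleoside transporter, had 636 ± 85.4, 642 ± 169, 577 ± 89.9 and 466 ± 27.5, and Slc9a8, a sodium-proton exchanger of the Golgi, had 632 ± 107, 702 ± 81.1, 504 ± 234 and 650 ± 70.8. Slc15a2, a peptide transporter, had 183 ± 62.8, 171 ± 29.0, 161 ± 40.5 and 189 ± 6.65. Slc48a1, which exports haem from lysosomes, had 488 ± 82.7, 593 ± 12.3, 772 ± 347 and 687 ± 24.8, and its widest spread was that of the control arrays of B6.CAST, at 526 and 1017.

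Noise changed no solute carrier past the threshold in either strain. In 129X1/SvJ, 0 of 129 tested members passed in limma, where 0.506% of all tested probe sets did. At an unadjusted p under 0.05 there were 8 members (6.20%) against 11.5% of all probe sets. In B6.CAST, 0 members passed, where 0.046% of all did, and 3 members (2.33%) had an unadjusted p under 0.05 against 2.1% of all. For the mean of the noise effects of both strains, 0 members passed against 0.46% of all, with 6 members (4.65%) against 7.63% at the unadjusted level. No member changed by 1 or more on the log2 scale in 129X1/SvJ or in B6.CAST, where 2.76% and 1.79% of all probe sets did. The median standard error of a member's noise effect was 0.24 in 129X1/SvJ and 0.30 in B6.CAST.

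The median member change after noise was -0.09 in 129X1/SvJ, where the median of all probe sets was -0.04, and 0.06 in B6.CAST, where it was 0.01. In 129X1/SvJ 49 members were higher and 80 lower after noise, against 3912 higher and 4783 lower of all tested probe sets. In B6.CAST 78 members were higher and 51 lower, against 4448 and 4246 of all. The median log2 value of the tested members was 8.29 on noise 1 of 129X1/SvJ and 8.36 on control 1 of B6.CAST. It was 8.44 to 8.61 on the other arrays, and the part of these 2 arrays in the counts was not tested. After noise 36 members were higher in both strains and 38 lower in both, while 42 were higher in B6.CAST alone and 13 in 129X1/SvJ alone. By class, counted in probe sets, in 129X1/SvJ 15 of 21 metal transporters, 13 of 21 mitochondrial carriers, 6 of 7 sugar transporters and 6 of 7 organic ion transporters lay lower after noise, with medians of -0.13, -0.07, -0.13 and -0.28. In B6.CAST, 11 of 21 metal transporters, 14 of 21 mitochondrial carriers, 3 of 7 sugar transporters and 4 of 7 organic ion transporters lay higher, with medians of 0.03, 0.08, -0.01 and 0.01. None of these members passed the test. The neutrophil markers were higher after noise in 129X1/SvJ for 12 of 12 genes, with a median of 0.85. Only 2 of the 12 had an unadjusted p under 0.05 in limma. Their sums overlapped there, at 3713 to 21880 on control and 13076 to 38798 on noise arrays, with the highest on noise 1. In B6.CAST they summed to 6160 to 20680 on control and 2475 to 2752 on noise arrays. The part of these markers in the members' values was not tested.

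**Figure D2:**
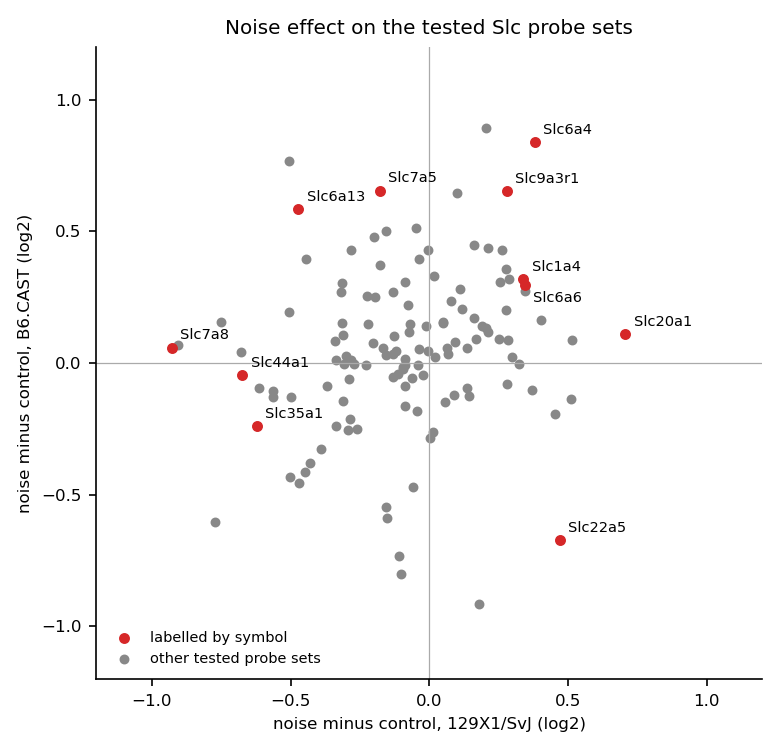
Noise minus control on the log2 scale for the 129 tested solute carrier probe sets, in 129X1/SvJ (x axis) and in B6.CAST (y axis); red points are labelled by symbol. The values run from -0.93 to 0.71 in 129X1/SvJ and from -0.91 to 0.89 in B6.CAST, and no point passed the test in either strain.

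Among the phosphate transporters, Slc20a1, a sodium-phosphate cotransporter present in most cells, had the smallest p of all members in 129X1/SvJ. Its signals were 820, 639 and 748 on the control arrays and 1156, 1119 and 1275 on the noise arrays of 129X1/SvJ. In B6.CAST they were 711 and 618 on the control arrays and 953 and 556 on the noise arrays. All 3 noise arrays of 129X1/SvJ lay above all 3 control arrays, while the groups of B6.CAST overlapped. The log2 difference was 0.71 ± 0.20 (SE, n = 3 and 3 arrays; limma adjusted p = 0.237) in 129X1/SvJ and 0.11 ± 0.25 (n = 2 and 2) in B6.CAST. The difference between the strains' noise effects was -0.60 ± 0.32 and did not pass (limma adjusted p = 0.997). It was -0.98 without noise 1 of B6.CAST and -0.21 without noise 2.

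In the amino acid class, 9 of 19 tested probe sets were higher after noise in 129X1/SvJ and 13 of 19 in B6.CAST, with medians of -0.0046 and 0.06. Slc6a6, which takes up taurine, read 1077, 1045 and 1196 on control and 1438, 1457 and 1238 on noise arrays of 129X1/SvJ, and 872 and 1131 on control and 1173 and 1305 on noise arrays of B6.CAST. Noise arrays were the higher ones in both strains without overlap, by 0.34 ± 0.15 (n = 3 and 3; limma adjusted p = 0.429) and 0.30 ± 0.19 (n = 2 and 2; limma adjusted p = 1). A second, dim probe set of Slc6a6, with group means of 52.0 to 59.4, gave -0.09 ± 0.46 and -0.01 ± 0.56. Slc1a4, an exchanger of small neutral amino acids, read 476, 471 and 508 on control and 712, 588 and 565 on noise arrays of 129X1/SvJ, and 424 and 514 on control and 605 and 559 on noise arrays of B6.CAST. Its groups did not overlap in either strain, and the log2 differences were 0.34 ± 0.17 and 0.32 ± 0.21. Slc38a2, a sodium-coupled carrier of neutral amino acids, gave 0.29 ± 0.21 and 0.32 ± 0.25 with overlapping groups in both strains.

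Slc7a8, a light chain that pairs with the protein of Slc3a2 to exchange neutral amino acids, had the lowest value among the noise effects of 129X1/SvJ. It read 1024, 1488 and 668 on the control arrays and 639, 349 and 611 on the noise arrays of that strain. The highest noise array was just under the lowest control array, and the log2 difference was -0.93 ± 0.34 (n = 3 and 3; limma adjusted p = 0.377). In B6.CAST it read 386 and 803 on control and 653 and 501 on noise arrays, which overlapped, with 0.06 ± 0.42 (n = 2 and 2). Slc7a5, the other light chain of this kind and partner of Slc3a2, gave -0.18 ± 0.28 in 129X1/SvJ and 0.65 ± 0.34 in B6.CAST. Slc3a2 itself gave 0.17 ± 0.10 and 0.09 ± 0.12, with the 3 noise arrays of 129X1/SvJ (6190, 6165 and 6069) above the 3 controls (5223, 5447 and 5557). Slc7a2, a transporter of arginine and other cationic amino acids, gave 0.40 ± 0.20 and 0.16 ± 0.24.

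The nucleotide sugar transporters, which load the Golgi and the endoplasmic reticulum with the donors of glycosylation, were split, with 5 of 10 higher after noise in 129X1/SvJ and 6 of 10 in B6.CAST. Slc35a1, the carrier of CMP-sialic acid, read 655, 513 and 478 on control and 286, 344 and 477 on noise arrays of 129X1/SvJ, and 570 and 490 on control and 411 and 481 on noise arrays of B6.CAST. The noise arrays were lower in both strains without overlap, though the nearest arrays of 129X1/SvJ, at 478 and 477, differed by little. The log2 differences were -0.62 ± 0.21 (limma adjusted p = 0.340) and -0.24 ± 0.26 (limma adjusted p = 1). Slc35b1, a nucleotide transporter of the endoplasmic reticulum, had 0.28 ± 0.12 (limma adjusted p = 0.428) and 0.09 ± 0.15, with all noise arrays above all controls of their strain.

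Slc44a1, a choline transporter, read 2152, 2143 and 1722 on control and 734, 1337 and 1837 on noise arrays of 129X1/SvJ. One noise array, at 1837, lay above a control array, at 1722, and the lowest value was that of the first noise array, the one that correlated least with the others. The log2 difference was -0.67 ± 0.26 (n = 3 and 3; limma adjusted p = 0.389), and it ran from -0.96 to -0.32 when single arrays were left out. In B6.CAST the signals were 2421 and 2082 on control and 2275 and 2068 on noise arrays, which gave -0.05 ± 0.32. Slc46a1, which carries folate and also haem, gave -0.56 ± 0.23 (limma adjusted p = 0.401) in 129X1/SvJ and -0.10 ± 0.28 in B6.CAST. Slc25a20, the carnitine-acylcarnitine carrier of mitochondria, gave -0.26 ± 0.15 and -0.25 ± 0.18, and its noise arrays lay under the control arrays in both strains.

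**Figure D3:**
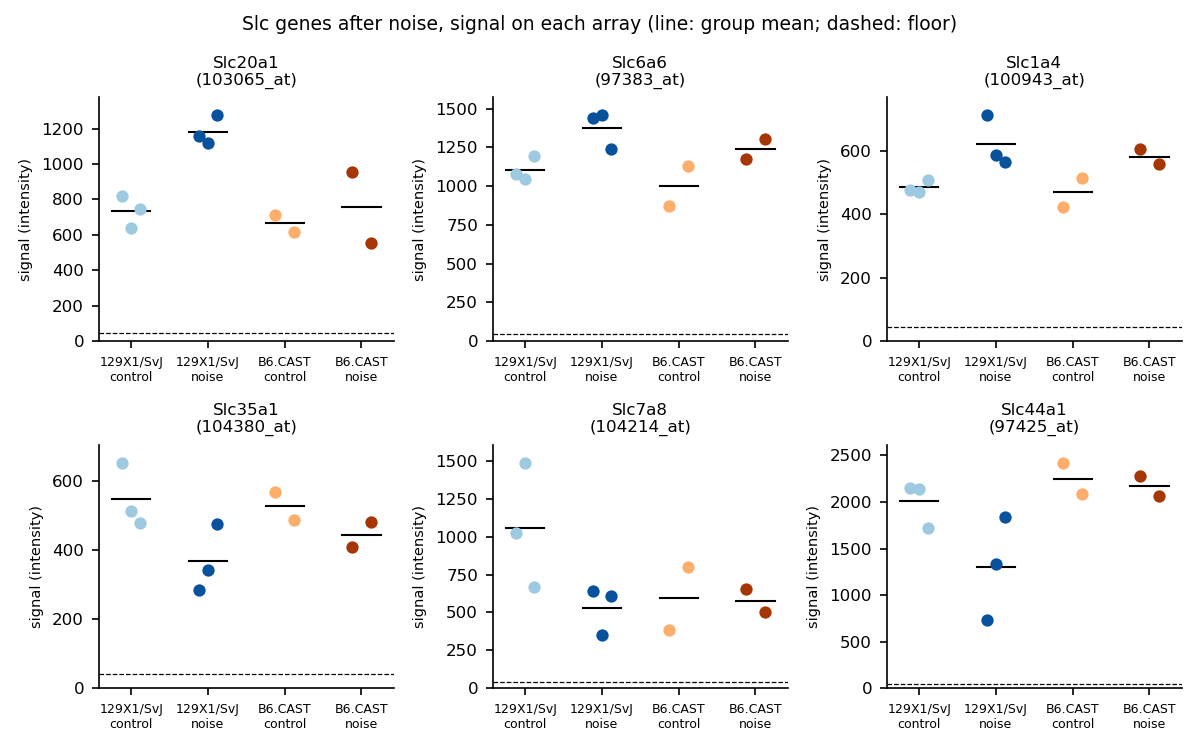
Deposited signal on each array for 6 solute carriers named in the noise comparison, with the line at the group mean and the dashed line at the floor. For Slc20a1 the 3 noise arrays of 129X1/SvJ lie at 1119 to 1275 against 639 to 820 on the controls, and no gene shown passed the test.

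The groups did not overlap in 16 members (12.4%) in 129X1/SvJ, where this held for 16% of all tested probe sets, and in 38 members (29.5%) in B6.CAST, where it held for 29.6%. In normalized values 7 members (5.43%) were free of overlap in the same direction in both strains, against 5.27% of all tested probe sets: Slc1a4, Slc6a6, Slc7a2, Slc35b1 and Slc66a2 were higher after noise, and Slc25a20 and Slc35a1 lower. For Slc7a2 the deposited signals of B6.CAST did overlap, at 312 and 280 on control and 309 and 351 on noise arrays. No member was free of overlap in opposite directions, where 0.978% of all tested probe sets were. Slc66a2, a membrane protein with PQ-loop repeats, read 1355, 1414 and 1479 on control and 1497, 1593 and 1665 on noise arrays of 129X1/SvJ, and 1024 and 1210 on control and 1216 and 1252 on noise arrays of B6.CAST. Its log2 differences were 0.19 ± 0.13 and 0.14 ± 0.15.

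In B6.CAST the smallest p belonged to a probe set of Slc6a4, the serotonin transporter, whose name marks probes that may match related sequences. It read 71.6 and 52.3 on control and 113 and 131 on noise arrays of B6.CAST, and 71.0, 105 and 118 on control and 146, 176 and 124 on noise arrays of 129X1/SvJ. In these signals every noise array was above every control array of its strain, while in normalized values the groups of 129X1/SvJ overlapped. The differences were 0.84 ± 0.30 (n = 2 and 2; limma adjusted p = 1) and 0.38 ± 0.25 (n = 3 and 3). The second probe set of Slc6a4 lay under the floor in both groups of B6.CAST and gave no measured difference there, and in 129X1/SvJ it gave -0.16 ± 0.47. Slc9a3r1, the scaffold protein NHERF1, had 0.65 ± 0.29 in B6.CAST, where it read 865 and 1722 on control and 2321 and 1628 on noise arrays. That value was 0.19 without control 1 and 1.12 without control 2. Slc12a7 had 0.40 ± 0.18 and Slc6a8, the creatine transporter, 0.43 ± 0.21, both with the noise arrays above the controls of B6.CAST and both near 0 in 129X1/SvJ (-0.04 ± 0.14 and -0.0046 ± 0.17). Among members that were lower after noise in B6.CAST, the smallest p were those of Slc22a5, a carnitine transporter, at -0.67 ± 0.39, and of the dim Slc25a53 and Slc1a2, at -0.91 ± 0.60 and -0.80 ± 0.57, with limma adjusted p = 1 for each. Leaving out noise 1 or noise 2 of B6.CAST gave -0.25 and -1.10 for Slc22a5, -1.44 and -0.40 for Slc25a53, and -0.11 and -1.49 for Slc1a2. Of the 8 named noise values in B6.CAST, 7 moved by over 1.5 times with some array left out, and of the 9 in 129X1/SvJ 3 did.

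In the test of a strain difference in the noise effect, B6.CAST minus 129X1/SvJ, 0 of 129 members and 0% of all probe sets passed in limma, and 2 members (1.55%) had an unadjusted p under 0.05 against 2.97% of all. These were Slc22a5 at -1.14 ± 0.50 and Slc6a13, a GABA and taurine transporter, at 1.06 ± 0.48, both with limma adjusted p = 0.997. Among positive differences the next smallest p were those of Slc11a1, the metal transporter of phagocyte vesicles, at 0.68 ± 0.34, Slc35c2, a Golgi transporter, at 0.70 ± 0.37, and Slc12a7 at 0.43 ± 0.23. Among negative differences they were those of Slc20a1 at -0.60 ± 0.32, Slc25a53 at -1.09 ± 0.78 and Slc27a1, a fatty acid transporter, at -0.65 ± 0.51 (limma adjusted p = 0.997 for each). With each array left out in turn, Slc22a5 ran from -1.57 to -0.71, the ends being those without noise 2 and noise 1 of B6.CAST, and Slc6a13 from 0.70 to 1.41, without control 1 and control 2 of B6.CAST. Of the 9 named differences of this kind, 8 moved by over 1.5 times with some array left out. Slc22a5 read 233, 82.7 and 139 on control and 240, 239 and 176 on noise arrays of 129X1/SvJ, and 289 and 248 on control and 104 and 236 on noise arrays of B6.CAST. Its groups overlapped in 129X1/SvJ and did not in B6.CAST.

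Strain differences passed the test in a few members. Averaged over control and noise mice, a comparison added after the data were seen, 5 of 129 members passed in limma (3.88%) against 3.24% of all probe sets. The share is close to that of the array as a whole. Slc25a4 and Slc51a were higher in B6.CAST (2.08% of all probe sets passed in that direction), and Slc6a13, Slc22a2 and Slc6a4 were higher in 129X1/SvJ (1.16% in that direction). In control mice alone 1 member passed, Slc6a13, against 0.92% of all probe sets, and 0.345% passed as lower in B6.CAST. At an unadjusted p under 0.05 there were 16 members (12.4%) among control mice and 19 (14.7%) in the average, against 11.1% and 15.3% of all. In noise mice alone 0 members passed, against 1.45% of all, and 15 members (11.6%) had an unadjusted p under 0.05 against 10.6% of all. The strains did not overlap in 32 members (24.8%) among control mice, in 38 (29.5%) among noise mice and in 9 (6.98%) over both, where this held for 29.9%, 25.3% and 6.12% of all probe sets. The median strain difference over members was -0.04, and -0.01 over all probe sets.

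**Figure D4:**
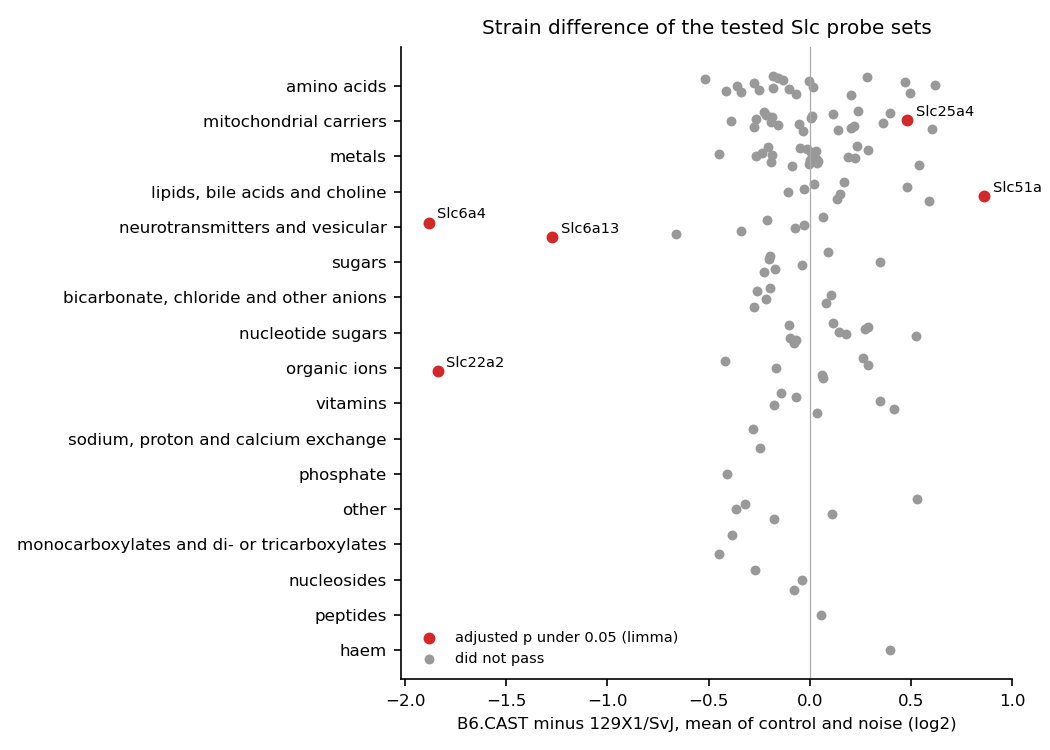
B6.CAST minus 129X1/SvJ, the mean of control and noise mice on the log2 scale, for the 129 tested solute carrier probe sets in rows by substrate class. Red points passed the limma test (adjusted p under 0.05): Slc6a4, Slc22a2 and Slc6a13 lie at -1.88, -1.84 and -1.27, and Slc25a4 and Slc51a at 0.48 and 0.86.

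The neurotransmitter and vesicular class held 2 of the 5 called probe sets, and 7 of its 8 tested probe sets were lower in B6.CAST, with a median of -0.27. Slc6a13 read 364, 602 and 361 on control and 388, 372 and 200 on noise arrays of 129X1/SvJ, and 88.7 and 137 on control and 139 and 208 on noise arrays of B6.CAST. Among control mice the strains did not overlap, and among noise mice the lowest array of 129X1/SvJ lay below the highest of B6.CAST. The log2 difference was -1.80 ± 0.34 in control mice (n = 3 and 2; limma adjusted p = 0.0385), a 3.48-fold difference, and -0.75 ± 0.34 in noise mice (limma adjusted p = 0.470). Averaged over both it was -1.27 ± 0.24 (n = 6 and 4; limma adjusted p = 0.0130). The call in control mice was lost when any of the 3 control arrays of 129X1/SvJ, its second noise array or either control array of B6.CAST was left out, with values from -2.15 to -1.45. The averaged call was lost without B6.CAST control 1 or noise 1.

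The other called member of that class was a probe set of Slc6a4. It read 66.5, 101 and 220 on control and 191, 69.7 and 116 on noise arrays of 129X1/SvJ, and 59.6 and 8.10 on control and 12.8 and 13.9 on noise arrays of B6.CAST. Every B6.CAST array lay below every 129X1/SvJ array, and only 1 of the 4 B6.CAST arrays was above the floor. Against the floor, the signal was at least 2.36-fold lower in control and at least 2.12-fold lower in noise mice of B6.CAST. The fit gave -1.88 ± 0.37 (n = 6 and 4; limma adjusted p = 0.0175), a value that rests on dim signals, moved to -1.09 with a pseudocount of 64 and to -2.61 with 1, and lost its call without array 2 of either B6.CAST group. The second probe set of Slc6a4, measured above the floor in all groups, gave -0.34 ± 0.20 (limma adjusted p = 0.455), so the probe sets of this gene disagreed in the call. Slc1a1, a glutamate transporter with both B6.CAST groups under the floor, was at least 1.36-fold lower in control mice of B6.CAST against the floor, and did not pass (limma adjusted p = 0.372). Markers of Schwann cells were lower in B6.CAST for 6 of 7 tested genes with a median of -0.44, and their part in these results was not tested.

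Slc22a2, the organic cation transporter OCT2, was the called member of the organic ion class, where 4 of 7 tested members were higher in B6.CAST. It read 306, 309 and 393 on control and 82.4, 385 and 281 on noise arrays of 129X1/SvJ, and 89.1 and 62.0 on control and 38.5 and 50.5 on noise arrays of B6.CAST. The first noise array of 129X1/SvJ lay within the range of B6.CAST, and the other 5 arrays of 129X1/SvJ were far above it. The difference was -1.84 ± 0.39 (n = 6 and 4; limma adjusted p = 0.0244), a 3.57-fold difference, and without that array it was called also in control mice alone and in noise mice alone, with limma adjusted p = 0.00265 and 0.00125. The fold is set against dim signals, since the noise mean of B6.CAST, 44.5, lay near the floor. The averaged value moved to -1.39 with a pseudocount of 64 and to -2.06 with 1, and kept its call in both. The call was lost, at limma adjusted p up to 0.0990, when the second or the third control array of 129X1/SvJ or any of the 4 arrays of B6.CAST was left out.

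Slc25a4 encodes an ADP/ATP carrier of the inner mitochondrial membrane that is abundant in muscle. It read 9248, 7471 and 8985 on control and 7634, 9388 and 6922 on noise arrays of 129X1/SvJ, and 13134 and 10305 on control and 11935 and 11455 on noise arrays of B6.CAST. All 4 arrays of B6.CAST lay above all 6 arrays of 129X1/SvJ, by 0.48 ± 0.09 on the log2 scale (limma adjusted p = 0.0137), a 1.40-fold difference. In noise mice alone the difference was 0.56 ± 0.13 (limma adjusted p = 0.0626) and in control mice alone 0.40 ± 0.13 (limma adjusted p = 0.264). The averaged call was lost without B6.CAST control 1 or noise 2, and without the variance trend (limma adjusted p = 0.0858). The skeletal muscle markers summed to 8007 to 14054 in 129X1/SvJ and to 7805 to 10807 in B6.CAST, so their sums overlapped between the strains, while 5 of the 8 tested genes were higher in B6.CAST, with a median difference of 0.18 and a range of -1.72 to 0.84. Their part in the result was not tested. Of the other mitochondrial carriers none passed, and 11 of the 21 tested probe sets were higher in B6.CAST with a median of 0.01. Slc25a5, another ADP/ATP carrier, gave 0.14 ± 0.21, and Slc25a39 and Slc25a36 gave -0.03 ± 0.10 and -0.05 ± 0.10.

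Slc51a, a subunit of a transporter that exports bile acids and steroids, was the called member of the lipid class, where 7 of 9 tested members were higher in B6.CAST, with a median of 0.15. It read 80.6, 65.5 and 81.2 on control and 84.9, 71.4 and 53.6 on noise arrays of 129X1/SvJ, and 101 and 155 on control and 143 and 164 on noise arrays of B6.CAST. The strains did not overlap, and the difference was 0.86 ± 0.20 (limma adjusted p = 0.0371), a 1.82-fold difference between signals not far above the floor. With the authors' scaling alone the call was lost (limma adjusted p = 0.0594). It was also lost in 8 of the 10 fits that left out an array, with limma adjusted p up to 0.174, and held only without 129X1/SvJ noise 1 or B6.CAST control 1. Slc10a3, a member of the bile acid transporter family, gave 0.59 ± 0.15 (limma adjusted p = 0.0635), with 259 to 365 on the 129X1/SvJ arrays and 399 to 545 on those of B6.CAST. None of the 5 averaged calls was kept when both arrays of high Gapdh ratio, 129X1/SvJ control 2 and B6.CAST noise 1, were left out: the values were then -1.06 for Slc6a13, -1.92 for Slc6a4, -1.81 for Slc22a2, 0.47 for Slc25a4 and 0.83 for Slc51a, with limma adjusted p from 0.0935 to 0.200.

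**Figure D5:**
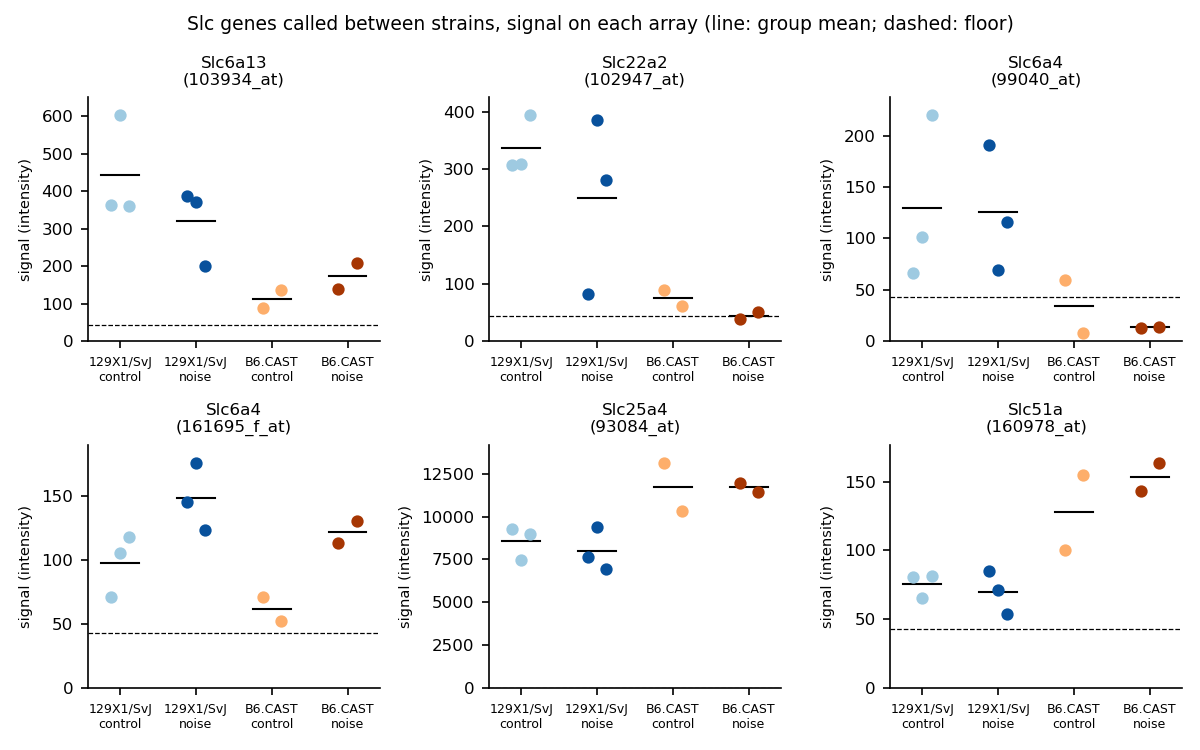
Deposited signal on each array for the 5 solute carriers called between the strains, with both probe sets of Slc6a4; lines are group means and the dashed line is the floor. B6.CAST arrays of Slc25a4 lie at 10305 to 13134 above all 129X1/SvJ arrays, and 3 of the 4 B6.CAST arrays of the called probe set of Slc6a4 lie under the floor.

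Several members stood just short of the threshold in the averaged comparison. Slc31a1, the copper importer CTR1, read 1047, 1213 and 1045 on control and 936, 1357 and 1118 on noise arrays of 129X1/SvJ, and 1653 and 1537 on control and 1462 and 1867 on noise arrays of B6.CAST. The strains did not overlap, at 0.54 ± 0.13 (limma adjusted p = 0.0524), while its second probe set gave 0.22 ± 0.13. Slc35b2, which brings the sulfate donor PAPS into the Golgi, gave 0.53 ± 0.13 (limma adjusted p = 0.0586), also without overlap. Slc6a8 was lower in B6.CAST by -0.52 ± 0.13 (limma adjusted p = 0.0624), with control arrays of 777 and 992 against 1349, 1603 and 1495 in 129X1/SvJ. Slc66a2 gave -0.37 ± 0.10 (limma adjusted p = 0.0779), and its B6.CAST arrays, from 1024 to 1252, lay under all those of 129X1/SvJ.

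In the remaining classes no strain difference passed. The metal transporters were balanced, with 11 of 21 higher in B6.CAST and a median of 0.0012, and of 19 amino acid probe sets 6 were higher, with a median of -0.13. Slc7a2 gave 0.47 ± 0.15 (limma adjusted p = 0.148) and Slc7a5 -0.41 ± 0.22 (limma adjusted p = 0.412). Of 7 sugar transporter probe sets 2 were higher and 5 lower, with a median of -0.17. Slc22a17, a receptor for the siderophore-binding protein lipocalin, gave -0.42 ± 0.15 (limma adjusted p = 0.178). Slc48a1 gave 0.40 ± 0.18 and Slc16a1, a carrier of lactate and pyruvate, -0.45 ± 0.30. In the average, the erythroid markers were lower in B6.CAST for 8 of 8 genes, with a median of -0.88. The neutrophil markers were lower in that average for 12 of 12 genes, with a median of -1.31, but control and noise mice differed. Among control mice 11 of the 12 were higher in B6.CAST, with a median of 0.20. Among noise mice 12 of 12 were lower, with a median of -2.80. The part of both marker lists in these strain values was not tested.

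Of 28 solute carriers listed for a role in the cochlea or in hearing, 11 had a probe set, and all 11 had one above the filter, 12 tested probe sets in all; the other genes of the list were not analysed here. After noise, 2 of the 12 were higher in 129X1/SvJ and 7 of 12 in B6.CAST, with medians of -0.09 and 0.03, and none passed. Slc22a4, a transporter of ergothioneine, gave -0.90 ± 0.39 in 129X1/SvJ (limma adjusted p = 0.421), with signals of 109, 139 and 74.5 on control and 40.4, 47.0 and 98.4 on noise arrays, near the floor and overlapping. Slc44a2, a choline transporter-like protein of supporting cells, gave -0.37 ± 0.19 in 129X1/SvJ and -0.09 ± 0.23 in B6.CAST. Slc30a4, a zinc transporter, had signals of 577 ± 112, 550 ± 105, 576 ± 119 and 550 ± 40.5 in control and noise mice of 129X1/SvJ and of B6.CAST, with -0.06 in each strain. Slc33a1, which carries acetyl-CoA into the endoplasmic reticulum, had 100.1 ± 33.9, 81.4 ± 30.9, 111 ± 22.1 and 76.6 ± 22 and gave -0.47 and -0.46. Slc1a2, the glial glutamate transporter, Slc8a1, a sodium-calcium exchanger, and Slc16a1 were near the floor, with group means from 47.8 to 115. Between the strains, 4 of the 12 were higher in B6.CAST, with a median of -0.09, and none passed.

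Where a gene had several tested probe sets, they did not always move together. Both probe sets of Slc30a5, a zinc transporter of the secretory pathway, were lower after noise in both strains, at -0.50 ± 0.29 and -0.45 ± 0.44 in 129X1/SvJ and -0.43 ± 0.36 and -0.41 ± 0.54 in B6.CAST. The probe sets of Slc31a1 gave 0.07 ± 0.17 and -0.13 ± 0.16 after noise in 129X1/SvJ. The brighter probe set of Slc25a5 gave -0.04 ± 0.26 after noise in 129X1/SvJ and the dimmer -0.44 ± 0.40. None of these passed, and 29 of the 148 genes had several probe sets.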

How the data were processed

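RNA of 10 pools was measured on one-colour Affymetrix arrays with biotin-labelled cRNA, per the labels' protocols. The authors deposited linear intensities, 1 per probe set and array, already scaled, since the mean without the lowest and highest 2% lies at 500.268 to 500.304 on every array. The software that made them is not given in the sources used here. Of 12488 probe sets, 66 are controls, 10855 have 1 platform symbol, 396 several and 1237 none here; all 182 member symbols were found in the RefSeq table of GRCm38.p6, and 1 probe set with several Slc genes was left out. From the intensities log2(intensity + 16) was taken, arrays were quantile normalized and the 30% with the lowest mean were dropped. limma 3.58.1 (R 4.3.3) fitted 4 group means to all 10 arrays with a variance trend. The fit was tested on simulated data. The log2 scale understates changes of dim genes, the number of arrays limits the precision, and p-values measure the spread between pools.

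The members, classes and lists were chosen with earlier results of these data known. Named members follow a rule: those past the threshold, or the 4 per direction with the smallest p where fewer than 5 passed; per class the brightest and up to 2 of smallest p; and the hearing list. Slc1a1, Slc1a4, Slc38a2, Slc25a5, Slc25a36 and Slc25a39, the comparisons of other members outside it, and the pairs of probe sets were chosen after their values were seen. The third 129X1/SvJ arrays carry another spelling of the strain in the labels and were kept in it. Checks of the replicate numbers as pairs gave correlations from -0.389 to 0.140, so arrays were not paired. Alternatives covered scaling, pseudocount, filter, variance trend, array weights, leaving out each array or the groups not compared, a replicate block, RNA quality and the threshold.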

Additional observations from a re-analysis of the deposited data

How the results depend on the processing

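No alternative gave a call among the solute carriers for noise in 129X1/SvJ, noise in B6.CAST, their mean or their difference, where the count was 0 throughout. For the strains in control mice the count of 1 became 0 without the filter, without the variance trend and without the 2 arrays of high Gapdh ratio, and 2 with array weights and with only the arrays compared; it ran from 0 to 2 with each array left out. For the strains in noise mice the count of 0 became 1 without the filter, with a filter of 50% and without the variance trend, 2 with array weights and 3 at a threshold of 0.1, and ran from 0 to 1 with each array left out. For the averaged strain difference, a filter of 50% left the called probe sets of Slc6a4, Slc22a2 and Slc51a untested. Slc25a4 and Slc6a13 kept their calls with it (limma adjusted p = 0.0107 and 0.0113). The count of 5 became 3 with that filter, 9 with array weights, 10 at a threshold of 0.1 and 0 without the 2 arrays of high Gapdh ratio. It ran from 1 to 7 with each array left out: 1 without B6.CAST noise 2, 2 without B6.CAST noise 1, 3 without B6.CAST control 1 or 2 or 129X1/SvJ control 2 or 3, and 7 without 129X1/SvJ noise 1. With the replicate block it became 1, Slc6a13, and the control count stayed 1. The check of the replicate numbers as pairs showed no pairing, but with groups of 2 or 3 arrays such a check cannot exclude it. Of the named values, Slc2a8 in control mice was -0.34 and ran from -0.71 to 0.038 with each array left out, turning without B6.CAST control 1. Over all named values and alternatives, 1457 kept direction and call, 41 lost the call, 25 gained it and 1 turned. Most named values were not called in the main fit, so for these the call was kept by staying uncalled. Only the called values could lose a call. With each array left out, the averaged call was lost in 8 of 10 fits for Slc51a and 6 of 10 for Slc22a2. It was lost in 2 of 10 each for Slc6a4, Slc25a4 and Slc6a13, and the control call of Slc6a13 in 6 of 10. A fit of only the arrays compared could not be made for averages and differences. The cause of these changes was not tested. Both groups of B6.CAST hold 2 arrays, and 53 of 182 probe sets gave only a bound.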

Other observations

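Genes that work with solute carriers or belong to their families under other symbols were described beside them, 20 of them on the array and 17 with a probe set above the filter, the brightest of which stood for the gene. None passed in any comparison in limma, where 3.24% of all probe sets did for the averaged strain difference; there 4 of the 17 had an unadjusted p under 0.05, against 15.3% of all probe sets, with 9 higher and 8 lower in B6.CAST. Emb, which encodes embigin, a chaperone of monocarboxylate transporters, was higher in B6.CAST by 0.55 ± 0.14 (limma adjusted p = 0.0530), and Bsg, the related basigin, by 0.17 ± 0.12. Slco3a1, an organic anion transporter, gave -0.37 ± 0.16, and Txnip, which lowers glucose uptake, -0.28 ± 0.11 by its brighter probe set and -0.08 ± 0.21 by the other. Rhag, an ammonium channel of red cells, gave -1.17 ± 0.52. It is itself among the 8 tested erythroid markers, which were lower in B6.CAST with a median of -0.88, so that list is not independent of it. The part of red cells in the value of Rhag was not tested. After noise in B6.CAST 12 of the 17 lay lower, with a median of -0.11, and in 129X1/SvJ 10 of 17, with a median of -0.12. Xpr1, a phosphate exporter, was near 0 in both strains after noise, at 0.04 and -0.01.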
